A study of Mus musculus with 4 samples.

Results

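RNA sequencing data from cultured mouse leukaemia cells were examined for 10 genes that take up or make arginine, split it, and turn its product ornithine into polyamines: Slc7a2, Ass1, Asl, Arg1, Arg2, Oat, Odc1, Srm, Sms and Sat1. They were picked by symbol, and all 10 were found among the 24497 gene rows of the table. The 10 were put forward when their levels and fold changes between these groups were already known, so their differences between genotypes are described here and not tested. The cells were acute myeloid leukaemia cells made to carry NRAS and AE9a, a truncated AML1-ETO fusion protein. Tet2 KO cells (2 libraries) came from haematopoietic stem cells taken from the marrow of Tet2-/- mice, which lack exon 3 of Tet2, the gene of a dioxygenase that oxidises 5-methylcytosine. WT cells (2 libraries) came in the same way from wild-type mice. Both genotypes carried both oncogenes and grew with 50 ng/ml stem cell factor, 10 ng/ml of both IL-3 and IL-6, and the selection drugs G418 (1 mg/ml) and puromycin (2 µg/ml). How the oncogenes were driven, the age of the mice and whether the libraries of a genotype came from separate cultures or mice was not given in the sources used here. Any p-value therefore reflects the spread among these 4 libraries alone, and that spread may be technical.

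Arginine enters cells through cationic amino acid transporters, and many cells also make it from citrulline by argininosuccinate synthase and argininosuccinate lyase. Arginase splits arginine into urea and ornithine, and in mouse macrophages and suppressive myeloid cells arginase 1 is a known means of depriving T cells of arginine. Ornithine goes to proline and glutamate, or, by ornithine decarboxylase, to putrescine, spermidine and spermine, which growing cells need in quantity.

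The values were TPM, a share of transcripts that is scaled by transcript length and to a fixed total, so that levels can be set side by side between genes but the sequencing depth is unknown. Among 11452 genes with at least 1 TPM in at least 2 libraries, the median log2 fold change, Tet2 KO minus WT on the log2(TPM + 1) scale, was 0.23, so a gene at 0 on this scale lay below most others in Tet2 KO cells; median-ratio scaling brought that median near 0, and values so scaled are called relative to the median gene below. Spike-in RNAs took 5.33 to 5.48% of the Tet2 KO libraries and 4.38 to 4.43% of the WT libraries. Tet2 itself stood at 16.98 and 16.95 TPM in Tet2 KO cells and at 16.62 and 16.98 TPM in WT cells, and a value over all its exons does not check the deletion of exon 3. The myeloid label fitted the marker genes: all 10 neutrophil markers and 6 of 10 macrophage markers reached 1 TPM in at least 2 libraries, against none of 5 B cell and none of 5 hepatocyte markers, 1 of 6 T cell (Lck), 1 of 6 endothelial (Vwf) and 1 of 8 stromal markers (Pdgfrb). Cd3e, Cd3g, Pax5, Lum, Cxcl12, Emcn, Ttr, Cyp3a11 and the macrophage gene C1qa were listed at 0 in all 4 libraries. The summed neutrophil markers came to 13809 and 13380 TPM in Tet2 KO cells and to 30587 and 30461 TPM in WT cells, and the summed macrophage markers to 698 and 724 TPM in Tet2 KO cells and to 867 and 867 TPM in WT cells. S100a8 and S100a9 made up most of the neutrophil sum, and Cd68 and Adgre1 most of the macrophage sum. Mpo was higher in Tet2 KO cells (156.6 against 91.8 TPM), as were Adgre1 and Fcgr1. The log2 fold change of Adgre1 was only 0.09, and -0.15 relative to the median gene, so its direction rests on the scale. The other tested markers of both lists were lower, among them Csf1r (41.4 against 100.1 TPM). The part of these marker differences in the results below was not tested, and in bulk RNA fewer cells of a kind and less RNA per cell cannot be told apart.

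Of the 10 genes, 3 stood far lower in Tet2 KO cells: the arginase gene Arg1, the arginine synthesis gene Ass1 and the transporter gene Slc7a2. Each had a mean TPM at least 5-fold lower than in WT cells, which held for 0.725% of all genes tested. The other 7 differed by 1.52-fold or less, and 3 of them (Arg2, Srm and Sms) had means within 10% of each other, as did 19.5% of all genes. The libraries of the 2 genotypes did not overlap for any of the 10, with 7 lower and 3 higher in Tet2 KO cells, where 86.8% of all genes did not overlap, 24.4% lower and 62.4% higher. In the limma fit across all genes, with Benjamini-Hochberg adjustment and a threshold of 0.05, 8 of the 10 were called, 7 lower and 1 higher, beside 73.9% of all genes, 19.5% lower and 54.4% higher; nothing is read from these counts, since the genes were chosen on this comparison. The count of lower genes was 4 without WT replicate 1, and relative to the median gene 8 of the 10 were called lower and 0 higher, beside 67.7% of all genes, 34.4% lower and 33.3% higher. The call of Ass1 was among those lost without WT replicate 1, and it was also lost without WT replicate 2 and with the replicate number as a block.

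**Figure D1:**
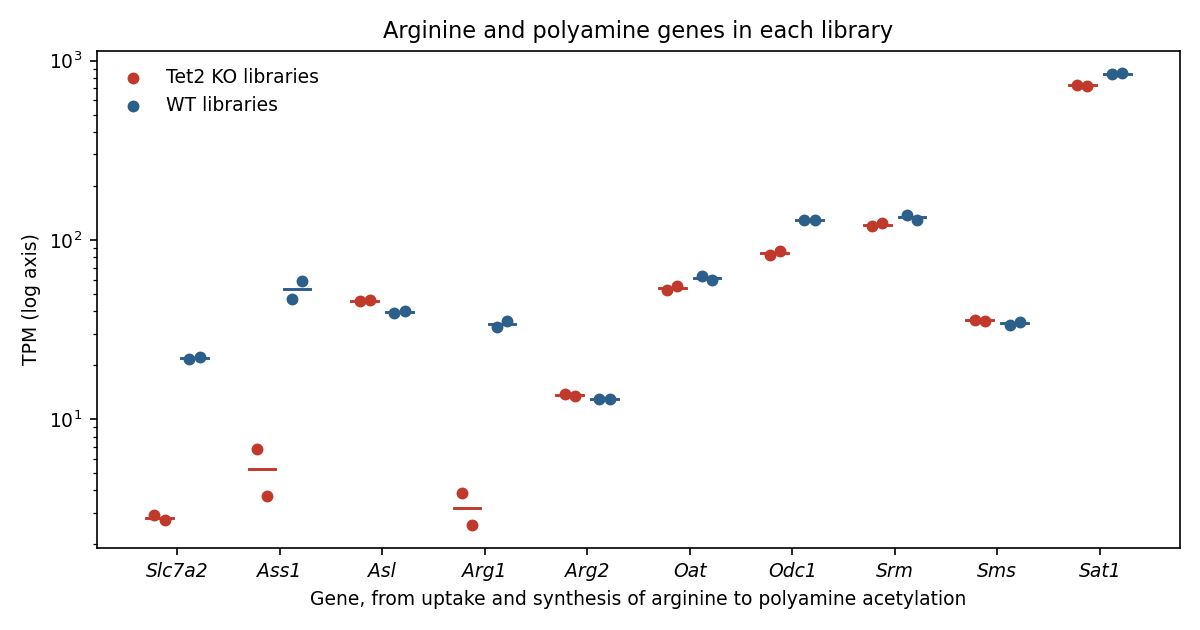
TPM on a log axis of each of the 10 genes in each library, Tet2 KO left of WT, with points for libraries and lines for means (n = 2 each). Slc7a2, Ass1 and Arg1 lie at 2.56 to 6.81 TPM in Tet2 KO cells, against 21.76 to 59.35 TPM in WT cells, while Arg2, Srm and Sms lie almost level.

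Slc7a2 (chromosome 8, 40862396 to 40922308, mm10, plus strand) encodes a cationic amino acid transporter known to be induced in activated macrophages. It was listed at 2.91 and 2.74 TPM in Tet2 KO cells and at 21.76 and 22.22 TPM in WT cells, a 7.78-fold lower mean. Both Tet2 KO libraries lay well below both WT libraries, and the log2 fold change was -2.59 (SE 0.0854), or -2.80 relative to the median gene. Of its 9135 annotated exon bases 635 overlap the opposite-strand gene Gm26584, and the sources used here do not say whether reads were counted by strand.

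The other tested plasma membrane arginine transporter genes were higher in Tet2 KO cells. Among 15 further genes of the urea cycle and of arginine and ornithine transport, 8 were tested. Of these 5 rose, all of them genes of plasma membrane transporters, and 2 fell (limma, adjusted p under 0.05). The falls were Azin2, an antizyme inhibitor gene counted in this list, and the mitochondrial carrier gene Slc25a29. Of all genes 54.4% rose and 19.5% fell. The numbers were 5 and 3 relative to the median gene, where 33.3% and 34.4% of all genes rose and fell. Nothing is read from the counts of this and the following lists. Azin2 and Slc25a29 passed the filter of 1 TPM only through the WT libraries, so their calls are not support for a difference. Slc7a3, which encodes another cationic amino acid transporter, rose to 6.58 and 7.69 TPM in Tet2 KO cells, against 0.33 and 0.20 TPM in WT cells (limma adjusted p = 1.09e-11). Slc7a3 passed that filter only through the Tet2 KO libraries, so this p-value is not support for the difference. Slc7a1, the gene of the widely expressed main arginine transporter, rose to 63.37 and 66.84 TPM in Tet2 KO cells, against 30.87 and 31.29 TPM in WT cells (limma adjusted p = 9.11e-11). The libraries of the 2 genotypes did not overlap for either gene. Slc3a2 encodes the heavy chain that carries several amino acid exchangers to the membrane, and rose to 337.0 ± 13.6 TPM in Tet2 KO cells, against 167.8 ± 0.799 TPM in WT cells (SD, n = 2 each, limma adjusted p = 4.20e-12). Slc7a6, a light chain that exchanges arginine for neutral amino acids, rose to 28.7 ± 0.474 TPM in Tet2 KO cells, against 21.2 ± 0.262 TPM in WT cells (limma adjusted p = 1.29e-05), a call lost after spike-in scaling (limma adjusted p = 0.0941, the highest over its alternatives, of which the lowest was 1.97e-06).

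Set against each other within a library on the deposited scale, Slc7a2 made up 3.99 and 3.55% of the summed TPM of Slc7a1, Slc7a2 and Slc7a3 in Tet2 KO cells and 41.1 and 41.4% in WT cells. Slc7a1 made up 87.0 and 86.5% in Tet2 KO cells and 58.3 and 58.3% in WT cells. Slc7a3 took 9.03 and 9.95% in Tet2 KO cells and 0.623 and 0.372% in WT cells. The sum itself was 72.86 and 77.27 TPM in Tet2 KO cells and 52.96 and 53.71 TPM in WT cells, so it was higher in Tet2 KO cells although Slc7a2 was lower. This set of 3 was chosen after its values were seen, and with 2 libraries against 2 an exact two-sided permutation test cannot give a p below 0.333.

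**Figure D2:**
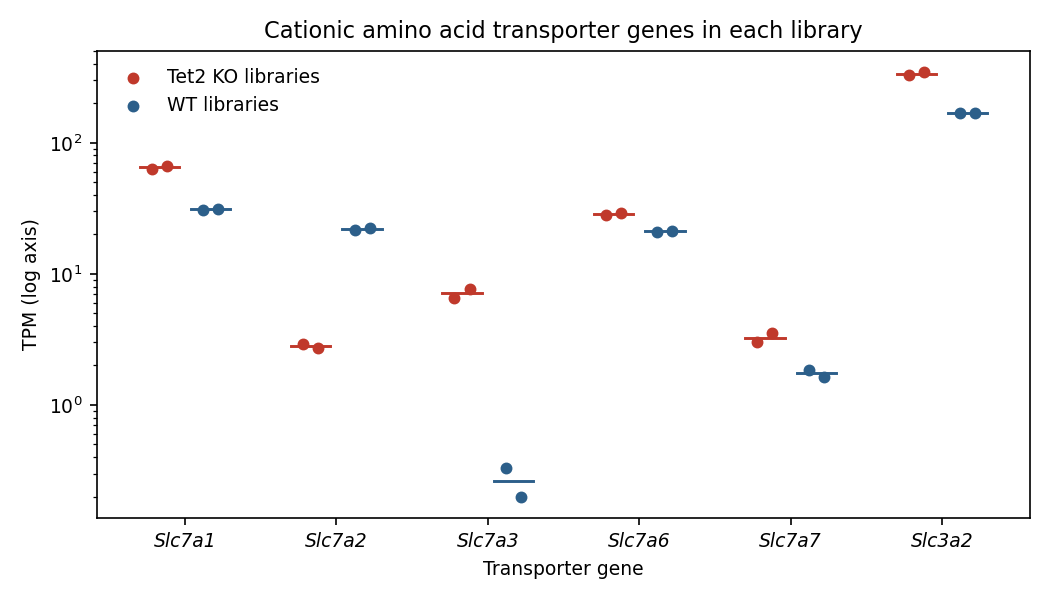
TPM on a log axis of 6 transporter genes in each library, Tet2 KO left of WT, with lines at the means (n = 2 each). Slc7a2 is the gene of the 6 that is lower in Tet2 KO cells, and Slc7a3 lies at 6.58 and 7.69 TPM in the Tet2 KO libraries, against 0.33 and 0.20 TPM in the WT libraries.

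Ass1 (chromosome 2, 31470207 to 31520672, mm10, plus strand, 16 exons in its longest transcript) encodes argininosuccinate synthase, the step that sets the pace of arginine synthesis from citrulline. It was listed at 6.81 and 3.73 TPM in Tet2 KO cells and at 46.92 and 59.35 TPM in WT cells, a 10.1-fold lower mean. The genotypes did not overlap, but replicates lay far apart, with a coefficient of variation of 41.3% in Tet2 KO cells and 16.5% in WT cells, and the log2 fold change was -3.15 (SE 0.382).

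This row is uncertain, because the table also holds Gm5424 (chromosome 10, 62071123 to 62072362, mm10, plus strand), annotated as a processed pseudogene with 1 exon. Of the runs of 50 bases in Gm5424, 76.5% were also found in the longest Ass1 transcript, which shared 55.3% of its own with Gm5424, so the authors' quantification could divide reads between the 2 rows. Gm5424 was listed at 37.02 and 38.08 TPM in Tet2 KO cells and at 199.37 and 185.91 TPM in WT cells, several times the level of Ass1 in every library. Added together, the 2 rows gave 43.83 and 41.81 TPM in Tet2 KO cells and 246.29 and 245.26 TPM in WT cells. The sum was 5.74-fold lower in Tet2 KO cells, and its coefficient of variation was 3.34% in Tet2 KO cells and 0.296% in WT cells, much smaller than for Ass1 alone. In a fit with the rows summed, added after the data were seen, its log2 fold change was -2.49 (SE 0.048). Ass1 as listed was thus 10.1-fold lower and the sum of both rows 5.74-fold lower; the files do not tell which transcripts the reads came from.

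**Figure D3:**
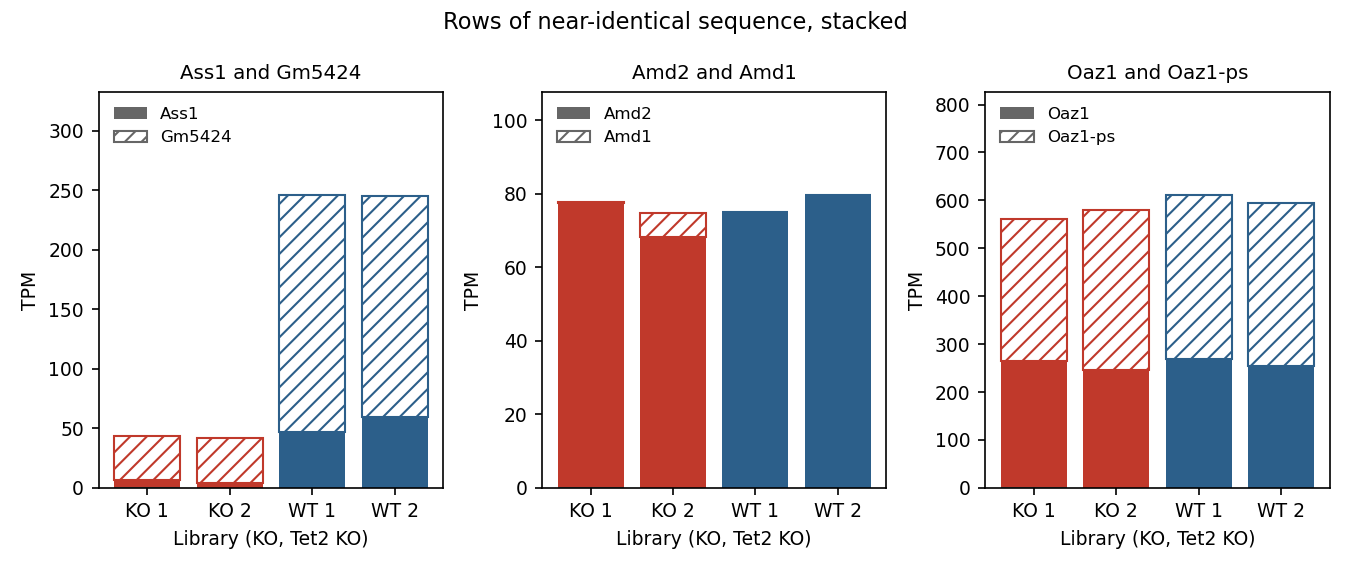
TPM of 3 genes (solid) and of rows of near-identical sequence (hatched) stacked for each library, Tet2 KO left of WT. Ass1 and Gm5424 sum to 43.83 and 41.81 TPM in Tet2 KO cells and to 246.29 and 245.26 TPM in WT cells, while the sums for Amd1 with Amd2 and for Oaz1 with Oaz1-ps differ little between genotypes.

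The Ass1 promoter is shown because Ass1 was among the 3 genes that were far lower and its promoter is in the RefSeq table of promoters, which has 5 of the 10 genes (Ass1, Odc1, Oat, Sms and Sat1). It covers 250 bases before to 50 after the annotated start at chr2:31470020-31470319 (GRCm38.p6, plus strand, 5′ to 3′), with the E-box CACGTG, a motif bound by MYC and related factors, in capitals.
Ass1: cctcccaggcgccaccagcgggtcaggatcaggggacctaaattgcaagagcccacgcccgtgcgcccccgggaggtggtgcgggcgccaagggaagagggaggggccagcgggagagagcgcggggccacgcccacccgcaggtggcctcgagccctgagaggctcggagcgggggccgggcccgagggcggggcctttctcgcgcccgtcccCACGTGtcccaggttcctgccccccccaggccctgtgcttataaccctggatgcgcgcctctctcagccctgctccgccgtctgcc
This window held 27 CpG sites, and 15.5% of the 32851 promoters in the table, whose median was 7, held at least as many. CACGTG, which reads the same on both strands, was present in 7.15% of those promoters and stood 36 bases before the RefSeq start of Ass1. TATAA, searched on both strands, matched at 2 overlapping places 2 and 3 bases after that start, and was in 24.9% of all promoters. The GENCODE start of Ass1, at 31470207, lies within the same window and before the CACGTG. The 2 annotations thus differ, and these offsets hold for the RefSeq start only. The ATF4 and C/EBP motif TGATGNAA, the C/EBP motif TTGCNNAA and the palindromic STAT motif, searched on both strands and present in 3.97%, 10.8% and 6.95% of all promoters, had no match in this window. These matches describe letters only.

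Asl (chromosome 5, 130011258 to 130029247, mm10, minus strand) encodes argininosuccinate lyase, the next enzyme, which releases arginine and fumarate. The table listed it at 45.44 and 46.18 TPM in Tet2 KO cells and at 39.12 and 40.11 TPM in WT cells, 15.6% higher on average in Tet2 KO cells. The genotypes did not overlap, but the log2 fold change of 0.20 (SE 0.0557) became -0.04 relative to the median gene and -0.08 after spike-in scaling, so its direction rests on the scale. Within each library the ratio of Ass1 to Asl was 0.150 and 0.0808 in Tet2 KO cells and 1.20 and 1.48 in WT cells. With Gm5424 added to Ass1 it was 0.965 and 0.905 in Tet2 KO cells and 6.30 and 6.12 in WT cells. With or without Gm5424, the ratio lay below 1 in both Tet2 KO libraries and above 1 in both WT libraries.

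Arg1 (chromosome 10, 24915221 to 24927484, mm10, minus strand, 8 exons in its longest transcript) encodes the cytosolic arginase, abundant in liver and in alternatively activated macrophages of the mouse. Its values were 3.87 and 2.56 TPM in Tet2 KO cells and 32.54 and 35.34 TPM in WT cells, a 10.6-fold lower mean. The genotypes lay far apart, and the log2 fold change was -3.07 (SE 0.149), or -3.28 relative to the median gene. No other annotated gene shared 20% or more of its longest transcript.

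Arg2 (chromosome 12, 79130777 to 79156301, mm10, plus strand) encodes the mitochondrial arginase. Its values were 13.85 and 13.43 TPM in Tet2 KO cells and 13.02 and 12.95 TPM in WT cells, only 5.04% higher in Tet2 KO cells. The log2 fold change was 0.07 (SE 0.0742), and -0.16 relative to the median gene, so the sign depends on the scale. Of its 1428 exon bases 285 overlap the opposite-strand gene Vti1b, which averaged 87.9 TPM over the 4 libraries. Arg1 made up 21.8 and 16.0% of the arginase TPM in Tet2 KO cells and 71.4 and 73.2% in WT cells. The main arginase transcript was thus Arg2 in both Tet2 KO libraries and Arg1 in both WT libraries. Both genes summed to 17.72 and 15.99 TPM in Tet2 KO cells and to 45.56 and 48.29 TPM in WT cells.

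The rest of the liver urea cycle was at or near 0. Cps1, the gene of carbamoyl phosphate synthetase, was listed at 0 and 0.01 TPM in Tet2 KO cells and at 0 in both WT libraries, and Otc, the ornithine transcarbamylase gene, and Agmat, an agmatinase gene, at 0 in all 4 libraries. Nags reached at most 0.19 TPM. Of the mitochondrial carriers, Slc25a15, which exchanges ornithine and citrulline, stood at 4.75 and 5.21 TPM in Tet2 KO cells and at 5.62 and 6.17 TPM in WT cells with a limma adjusted p of 0.072, but was called lower relative to the median gene (log2 fold change -0.41, limma adjusted p = 0.00305).

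Oat (chromosome 7, 132557478 to 132576398, mm10, minus strand) encodes ornithine aminotransferase, which links ornithine to proline and glutamate. The table gave it 52.57 and 55.56 TPM in Tet2 KO cells and 63.13 and 60.06 TPM in WT cells, a difference of -12.2% in the mean. The log2 fold change was -0.19 (SE 0.0557), and -0.43 relative to the median gene, with no overlap between genotypes. Among 7 genes between ornithine, glutamate and proline, 6 were tested, of which 3 rose and 2 fell, beside 54.4% and 19.5% of all genes. Relative to the median gene the counts were 2 and 3, beside 33.3% and 34.4%. Aldh18a1 encodes the synthase that opens the route from glutamate to proline and ornithine, and rose to 95.94 and 100.18 TPM in Tet2 KO cells, against 46.49 and 46.29 TPM in WT cells (limma adjusted p = 2.58e-11). Prodh, a proline oxidase gene, rose to 6.28 ± 0.743 TPM in Tet2 KO cells, against 4.37 ± 0.332 TPM in WT cells (SD, n = 2 each, limma adjusted p = 0.00138), and was not called relative to the median gene (adjusted p = 0.0654). Aldh4a1, which completes proline breakdown, fell to 12.6 ± 0.191 TPM in Tet2 KO cells, against 14.7 ± 0.0424 TPM in WT cells (limma adjusted p = 0.0232), a call lost without WT replicate 1, WT replicate 2 or Tet2 KO replicate 2 (adjusted p = 0.107, 0.116 and 0.0522).

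Odc1 (chromosome 12, 17544794 to 17551505, mm10, plus strand) encodes ornithine decarboxylase, the controlled entry step of polyamine synthesis and a classical target of MYC. The table gave it 82.18 and 86.67 TPM in Tet2 KO cells and 128.44 and 128.48 TPM in WT cells, a difference of -34.3% in the mean. Both Tet2 KO libraries lay below both WT libraries, which were nearly identical, and the log2 fold change was -0.60 (SE 0.0483), or -0.84 relative to the median gene. Its promoter window is also shown, at chr12:17544623-17544922 (GRCm38.p6, plus strand, 5′ to 3′), with no capitals because none of the 5 motifs searched matched in it. Sequence outside this window, such as the introns, was not searched, so a lack of E-boxes in the gene cannot be read from it.
Odc1: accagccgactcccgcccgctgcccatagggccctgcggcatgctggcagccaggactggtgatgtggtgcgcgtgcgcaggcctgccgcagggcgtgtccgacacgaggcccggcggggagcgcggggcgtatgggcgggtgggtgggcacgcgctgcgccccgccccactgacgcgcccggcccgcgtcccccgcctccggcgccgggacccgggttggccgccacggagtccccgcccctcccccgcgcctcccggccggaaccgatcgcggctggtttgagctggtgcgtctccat
The window held 42 CpG sites, a number reached by 3.03% of all promoters in the table. The E-box was also present in 1 of the 2 annotated Sms windows and in neither the Oat nor the Sat1 window.

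Ornithine decarboxylase is controlled by antizymes, which send it to the proteasome, and by antizyme inhibitors, which spare it. Of 6 further genes of polyamine synthesis and this control, 4 were tested, 1 rose and 1 fell, beside 54.4% and 19.5% of all genes. Relative to the median gene the counts were 1 and 3, beside 33.3% and 34.4%. The antizyme gene Oaz2 rose to 43.94 and 41.53 TPM in Tet2 KO cells, against 28.57 and 30.29 TPM in WT cells (limma adjusted p = 8.84e-07). The antizyme inhibitor gene Azin1 fell to 54.97 and 51.71 TPM in Tet2 KO cells, against 58.47 and 62.91 TPM in WT cells (limma adjusted p = 0.00949), a call lost without WT replicate 2 or Tet2 KO replicate 2 (adjusted p = 0.175 and 0.0511). The genotypes did not overlap for either gene. Another antizyme inhibitor gene, Azin2, was counted above with the genes of the urea cycle and transport. Oaz1, the main antizyme gene, was at 263.97 and 245.45 TPM in Tet2 KO cells and at 268.91 and 255.31 TPM in WT cells (limma adjusted p = 0.416), and was called lower relative to the median gene (log2 fold change -0.29, limma adjusted p = 0.00153). Oaz1 shares 52.2% of its 50-base runs with the pseudogene Oaz1-ps. Both rows summed to 560.69 and 580.78 TPM in Tet2 KO cells and to 611.96 and 594.67 TPM in WT cells. Per unit of this sum, Odc1 stood at 0.147 and 0.149 in Tet2 KO cells and at 0.210 and 0.216 in WT cells.

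Srm (chromosome 4, 148591503 to 148594993, mm10, plus strand) encodes spermidine synthase. It was listed at 119.27 and 124.25 TPM in Tet2 KO cells and at 137.87 and 129.46 TPM in WT cells, a difference of -8.91% in the mean, with a log2 fold change of -0.13 (SE 0.0485), or -0.38 relative to the median gene. Sms (chromosome X, 157443855 to 157492287, mm10, minus strand) encodes spermine synthase. It was listed at 35.76 and 35.41 TPM in Tet2 KO cells and at 33.62 and 34.94 TPM in WT cells, 3.81% higher in Tet2 KO cells, with a log2 fold change of 0.05 (SE 0.058). Relative to the median gene that of Sms was -0.19, so its sign rests on the scale. The ratio of Srm to Sms was 3.34 and 3.51 in Tet2 KO cells and 4.10 and 3.71 in WT cells, without overlap. S-adenosylmethionine decarboxylase supplies the aminopropyl groups for both synthases, and its 2 genes share over 85% of their 50-base runs. Amd2 was at 77.55 and 68.14 TPM in Tet2 KO cells and at 75.00 and 79.74 TPM in WT cells. Amd1 and Amd2 together were at 77.61 and 74.73 TPM in Tet2 KO cells and at 75.00 and 79.74 TPM in WT cells, which overlap. Amd2 was called lower relative to the median gene (log2 fold change -0.33). Amd2 is annotated with 1 exon and Amd1 with 8, and the Amd2 row may hold reads of Amd1.

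Sat1 (chromosome X, 155213132 to 155216449, mm10, minus strand) encodes the acetyltransferase that marks spermidine and spermine for export or oxidation, and was the most abundant of the 10 in every library. Its level was 735.25 and 723.66 TPM in Tet2 KO cells and 843.84 and 849.99 TPM in WT cells, a difference of -13.9% in the mean. The genotypes did not overlap and the log2 fold change was -0.22 (SE 0.0334), or -0.46 relative to the median gene, but 0.07 after quantile normalization. The ratio of Odc1 to Sat1 was 0.1118 and 0.1198 in Tet2 KO cells and 0.1522 and 0.1512 in WT cells, so the synthesis gene was lower relative to the breakdown gene in both Tet2 KO libraries.

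Of 11 further genes of polyamine oxidation, acetylation and transport, 6 were tested, 3 rose and 1 fell, beside 54.4% and 19.5% of all genes. Relative to the median gene the counts were 2 and 1, beside 33.3% and 34.4%. Paox, the peroxisomal oxidase of acetylated polyamines, rose to 15.46 and 16.08 TPM in Tet2 KO cells, against 5.98 and 7.54 TPM in WT cells (limma adjusted p = 5.13e-08). Atp13a3, which encodes a polyamine transporter of the endosome, rose to 61.39 and 57.74 TPM in Tet2 KO cells, against 38.63 and 41.57 TPM in WT cells (limma adjusted p = 3.04e-07). Atp13a2, the lysosomal polyamine exporter gene, fell to 51.57 and 56.65 TPM in Tet2 KO cells, against 71.15 and 70.05 TPM in WT cells (limma adjusted p = 1.70e-05). These 2 related transporter genes thus moved in opposite directions. Slc22a3, an organic cation transporter gene, rose to 12.9 ± 0.7 TPM in Tet2 KO cells, against 10.3 ± 0.177 TPM in WT cells (SD, n = 2 each, limma adjusted p = 0.00341), and was not called relative to the median gene (adjusted p = 0.415). Smox, the spermine oxidase gene, was at 16.22 and 22.17 TPM in Tet2 KO cells and at 17.75 and 17.85 TPM in WT cells, which overlap.

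**Figure D4:**
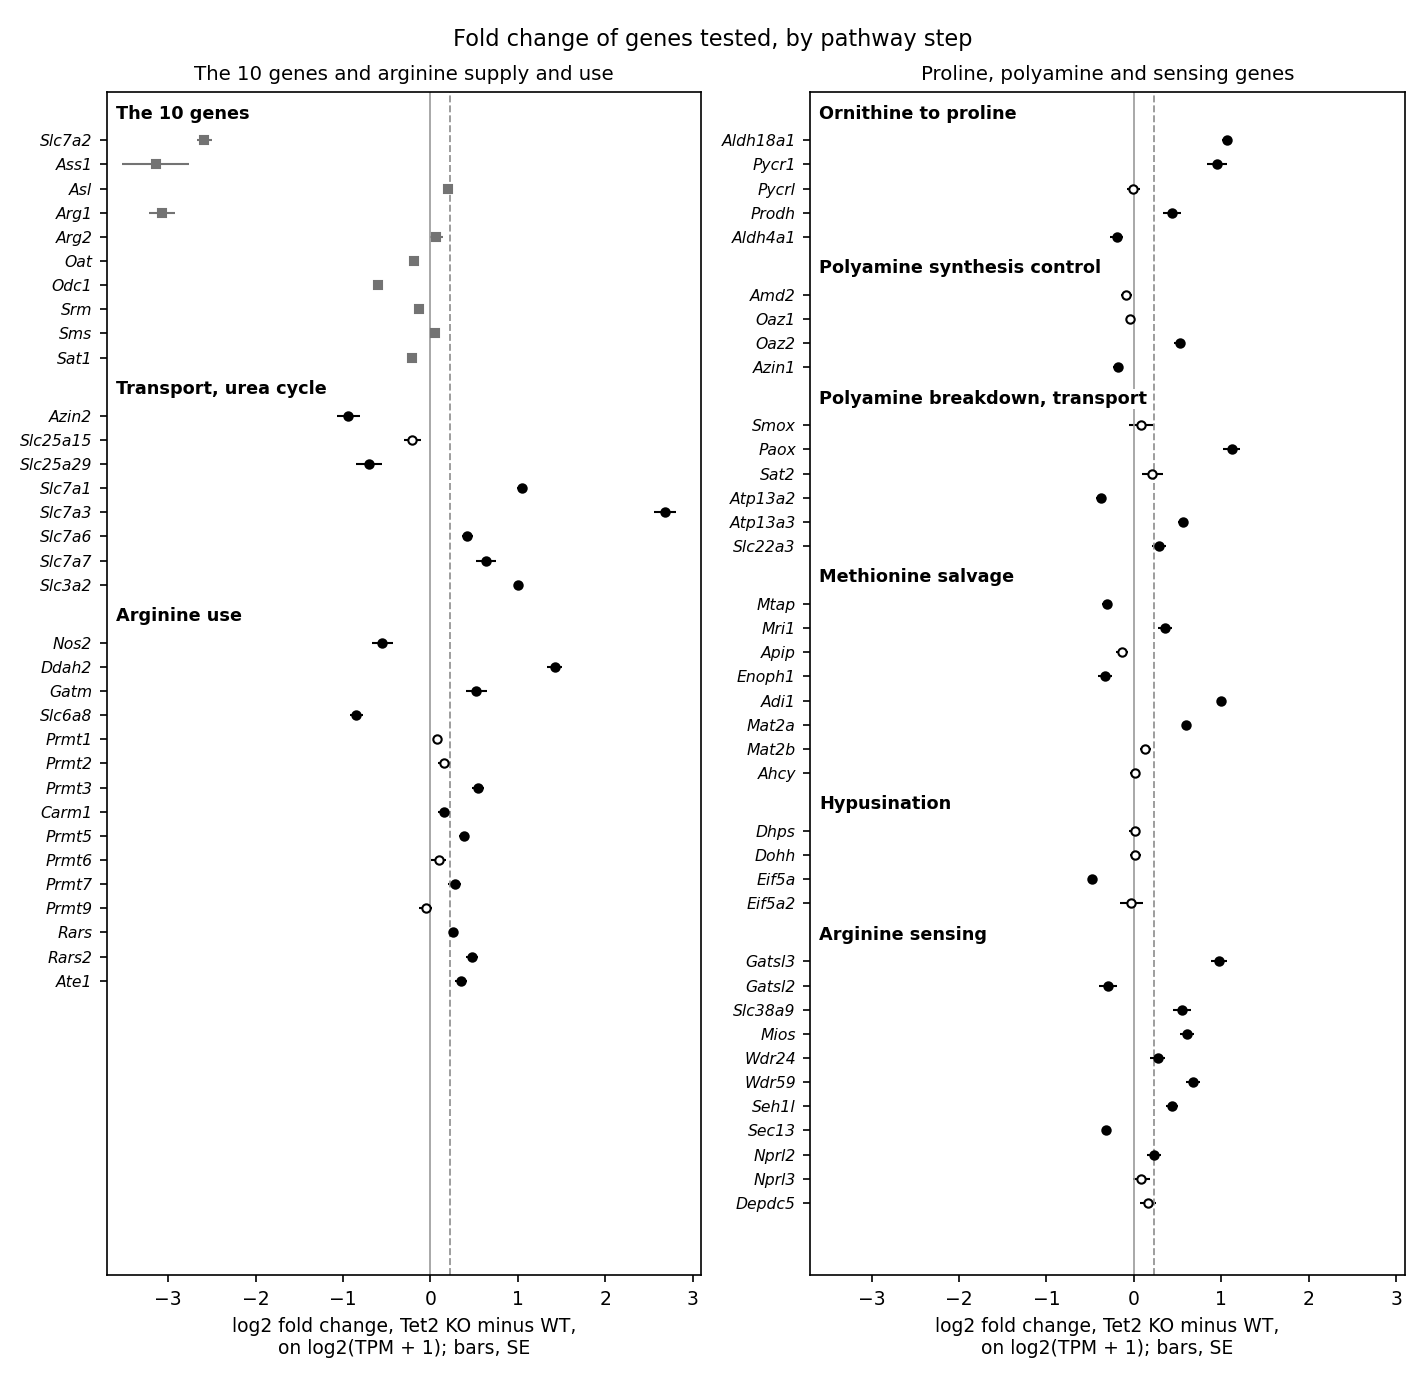
Log2 fold change, Tet2 KO minus WT, of tested genes of the pathway lists, with SE as bars; grey squares are the 10 genes, filled circles other genes past an adjusted p of 0.05 in limma, open circles those not past it, and the dashed line the median of all genes. Slc7a2, Ass1 and Arg1 lie below -2.5, while Slc7a3, Ddah2, Paox, Aldh18a1, Slc7a1, Slc3a2 and Adi1 lie at 1.00 or above.

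Polyamine synthesis leaves methylthioadenosine, which is recycled to methionine. Of 9 genes of this salvage and of S-adenosylmethionine supply, 8 were tested, 3 rose and 2 fell, beside 54.4% and 19.5% of all genes. Relative to the median gene the counts were 2 and 4, beside 33.3% and 34.4%. Adi1, a dioxygenase of the salvage route, rose to 148.61 and 144.28 TPM in Tet2 KO cells, against 72.29 and 73.14 TPM in WT cells (limma adjusted p = 1.61e-11). Mat2a, which encodes S-adenosylmethionine synthetase, rose to 209.93 and 214.55 TPM in Tet2 KO cells, against 136.62 and 143.22 TPM in WT cells (limma adjusted p = 4.14e-09). Enoph1, of the salvage route, fell to 16.2 ± 1.13 TPM in Tet2 KO cells, against 20.6 ± 2.04 TPM in WT cells (SD, n = 2 each, limma adjusted p = 0.00149), and Mri1 rose to 23.7 ± 2.50 TPM in Tet2 KO cells, against 18.3 ± 1.80 TPM in WT cells (limma adjusted p = 0.00214; not called relative to the median gene, adjusted p = 0.25).

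Spermidine is also used to make hypusine, a modified lysine of the translation factor eIF5A. Of 4 genes tested, Eif5a fell to 859.59 and 871.09 TPM in Tet2 KO cells, against 1202.57 and 1204.78 TPM in WT cells (limma adjusted p = 1.37e-09). The 2 enzyme genes did not pass: Dhps was at 24.8 TPM in Tet2 KO cells and 24.6 TPM in WT cells, and Dohh at 30.9 TPM in Tet2 KO cells and 30.6 TPM in WT cells (limma adjusted p = 0.898 and 0.833). Relative to the median gene 3 of the 4 fell, Dhps and Dohh included. Of all genes 34.4% fell on that scale and 19.5% on the deposited scale.

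Of 20 genes that use arginine for nitric oxide, creatine, arginine methylation or arginyl transfer, 15 were tested. Of these 9 rose and 2 fell, beside 54.4% and 19.5% of all genes, and the median log2 fold change was 0.26, beside 0.23 for all genes. Relative to the median gene the counts were 5 and 4, beside 33.3% and 34.4%. Ddah2, which encodes a hydrolase of methylated arginines, rose to 16.55 and 15.56 TPM in Tet2 KO cells, against 5.24 and 5.49 TPM in WT cells (limma adjusted p = 2.59e-10). The creatine transporter gene Slc6a8 fell to 11.53 and 12.74 TPM in Tet2 KO cells, against 23.44 and 21.92 TPM in WT cells (limma adjusted p = 3.24e-08). Prmt3, an arginine methyltransferase gene, rose to 30.95 ± 2.21 TPM in Tet2 KO cells, against 20.9 ± 0.997 TPM in WT cells, and Rars2, the mitochondrial arginyl-tRNA synthetase gene, to 26.6 ± 1.37 TPM in Tet2 KO cells, against 18.8 ± 1.08 TPM in WT cells (SD, n = 2 each, limma adjusted p = 2.26e-06 and 9.79e-06). Nos2, the inducible nitric oxide synthase gene whose product competes with arginase for arginine, was singled out after its values were seen. It fell to 2.01 and 1.68 TPM in Tet2 KO cells, against 2.93 and 3.42 TPM in WT cells (limma adjusted p = 0.000592). Of 12 genes that sense arginine or relay amino acid signals upstream of mTORC1, 11 were tested. Of these 7 rose and 2 fell, beside 54.4% and 19.5% of all genes. Their median log2 fold change was 0.28, near the 0.23 of all genes. Relative to the median gene the counts were 4 and 2, beside 33.3% and 34.4%. Gatsl3 (Castor1), an arginine sensor gene, rose to 12.08 and 14.40 TPM in Tet2 KO cells, against 6.26 and 6.15 TPM in WT cells (limma adjusted p = 8.37e-08). The 2 that fell were its relative Gatsl2 (Castor2) and Sec13 (limma adjusted p = 0.0205 and 7.85e-06). Gatsl2 was at 3.05 and 3.47 TPM in Tet2 KO cells and at 4.12 and 4.33 TPM in WT cells. Its call was lost without WT replicate 1, WT replicate 2 or Tet2 KO replicate 1. Slc38a9, the lysosomal sensor gene, rose to 6.50 and 6.33 TPM in Tet2 KO cells, against 3.83 and 4.30 TPM in WT cells (limma adjusted p = 0.000106), and Wdr59 and Mios, of the GATOR complex, rose to 17.2 ± 1.25 and 14.3 ± 0.629 TPM in Tet2 KO cells, against 10.4 ± 0.0212 and 9.03 ± 0.149 TPM in WT cells (limma adjusted p = 8.47e-07 and 3.21e-06).

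Over these 8 lists 62 of 84 genes were tested, of which 31 rose and 13 fell, where 54.4% and 19.5% of all genes did; their median log2 fold change was 0.19, beside 0.23 for all genes. Relative to the median gene 21 rose and 23 fell, where 33.3% and 34.4% of all genes did. 

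In mouse macrophages Arg1 is induced by interleukin-4 and interleukin-13 through STAT6, so a list of that programme was set beside it. Of 19 genes 18 were tested, 6 rose and 8 fell, where 54.4% of all genes rose and 19.5% fell, and the median log2 fold change was 0.03. Relative to the median gene 5 rose and 9 fell, where 33.3% and 34.4% of all genes did. The 8 that fell included genes known to be switched on in alternatively activated macrophages. The mannose receptor gene Mrc1 fell to 6.69 and 5.86 TPM in Tet2 KO cells, against 25.52 and 26.05 TPM in WT cells (limma adjusted p = 4.64e-12), and the transcription factor gene Egr2 to 5.14 and 5.39 TPM in Tet2 KO cells, against 19.42 and 19.51 TPM in WT cells (limma adjusted p = 1.54e-11). The other falls were Retnla, Chil3, Mgl2, Ccl17, Ccl22 and Pparg, and Ccl22 stood at 0 in both Tet2 KO libraries. Retnla, Ccl17 and Ccl22 passed the filter of 1 TPM only through the WT libraries, so their calls are not support for a difference. They are included in the 8 that fell. Clec10a, a lectin gene and close relative of Mgl2, went the other way, at 128.38 and 131.43 TPM in Tet2 KO cells and at 17.75 and 15.93 TPM in WT cells (limma adjusted p = 6.61e-16), as did Pdcd1lg2, the PD-L2 gene, at 52.00 and 50.37 TPM in Tet2 KO cells and at 13.94 and 13.93 TPM in WT cells (limma adjusted p = 2.40e-13). Among the receptor and signalling genes, Il4ra rose to 75.47 and 81.91 TPM in Tet2 KO cells, against 53.35 and 52.87 TPM in WT cells (limma adjusted p = 1.50e-07). Stat6 rose to 95.25 and 101.83 TPM in Tet2 KO cells, against 86.70 and 87.69 TPM in WT cells (limma adjusted p = 0.00554), but was not called relative to the median gene, where its log2 fold change was -0.07. Jak1 rose to 152.83 and 152.30 TPM in Tet2 KO cells, against 111.74 and 113.57 TPM in WT cells (limma adjusted p = 2.16e-07). The transcription factor gene Klf4 rose to 3.58 and 3.40 TPM in Tet2 KO cells, against 1.44 and 1.51 TPM in WT cells (limma adjusted p = 4.25e-06). The 4 tested genes not called were Il13ra1, Il2rg, Cebpb and Irf4 (limma adjusted p = 0.298, 0.523, 0.24 and 0.0509). Of these, Il2rg was called lower relative to the median gene (log2 fold change -0.27, limma adjusted p = 0.000289). Jak1, Klf4, Il4ra, Stat6 and the falls named without values were picked after their values were seen.

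**Figure D5:**
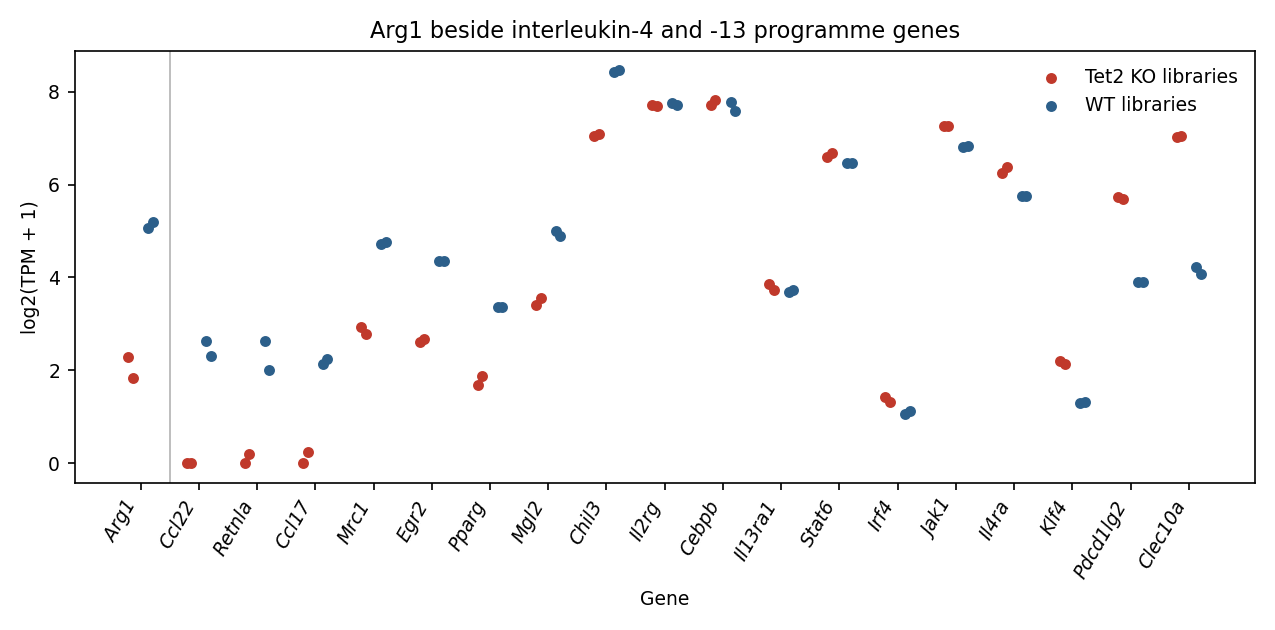
Log2(TPM + 1) of Arg1 and of 18 interleukin-4 and interleukin-13 programme genes in each library, ordered by fold change, Tet2 KO left of WT (n = 2 each). Ccl22, Retnla, Ccl17, Mrc1, Egr2, Pparg, Mgl2 and Chil3 lie lower in both Tet2 KO libraries. Clec10a, Pdcd1lg2, Klf4, Il4ra, Jak1 and Stat6 lie higher in both.

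By level, the order in Tet2 KO cells ran Sat1, Srm, Odc1, Oat, Asl, Sms, Arg2, Ass1, Arg1 and Slc7a2, with means of 729.5 to 2.83 TPM; the replicate values of Ass1 and Arg1, and of Arg1 and Slc7a2, overlapped. In WT cells it ran Sat1, Srm, Odc1, Oat, Ass1, Asl, Sms, Arg1, Slc7a2 and Arg2, with means of 846.9 to 13.0 TPM, and the values of Sms and Arg1 overlapped. The order of the 4 most abundant genes was the same in both genotypes. With Gm5424 added, Ass1 would stand after Sat1 in WT cells, at 245.8 TPM, and after Asl in Tet2 KO cells, at 42.8 TPM.

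The genes most like Arg1 were those with the smallest Euclidean distance between log2(TPM + 1) profiles over the 4 libraries, each centred on its own mean, out of 10896 tested genes. Predicted genes such as Gm5424, RIKEN clones and small RNAs were left out. They were Olr1, the receptor gene for oxidised low-density lipoprotein (distance 0.187), Ass1 (0.258), Angptl2 (0.392), Hao1 (0.423) and Atp6v0d2, a proton pump subunit gene (0.435). Slc7a2 ranked 13 (0.556). The rank of Ass1 rests on its row as listed, which is uncertain beside Gm5424. With Gm5424 summed, the log2 fold change of Ass1 was -2.49, beside -3.07 for Arg1, and the distance of that sum was not computed. Olr1 was listed at 5.36 and 4.25 TPM in Tet2 KO cells and at 42.71 and 43.92 TPM in WT cells. The measure is a description over 4 libraries in 2 groups, with no test.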

How the data were processed

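RNA of 2 Tet2 KO and 2 WT libraries was extracted with QIAzol and made into stranded mRNA libraries, per the labels' protocols. The table deposited by the authors holds TPM to 2 decimals in 24589 rows, each column summing to 1000000 within rounding; the submitters' processing notes name STAR, RSEM and mm10, while annotation, versions and filters were not given in the sources used here. TPM keep no depth, so no counting error was computed. The 92 spike-in rows were left out of tests. Groups were compared with limma 3.58.1 (R 4.3.3, statmod 1.5.0; trend and robust, tested on simulated data) on log2(TPM + 1), which understates low genes, for genes at or above 1 TPM in no fewer than 2 libraries, two-sided, with Benjamini-Hochberg adjustment over all 11452. The 10 genes and the lists were chosen with earlier results of these data known. Named beside the 10 were up to 4 called genes per list, by size of log2 fold change, whose higher group averaged at least 5 TPM, and the 5 genes nearest to Arg1. Positions and transcripts came from GENCODE M21; copies were searched as shared runs of 50 bases. Promoters came from RefSeq. Summing near-identical rows was chosen after seeing the data. A named result that the counts include is not reported here. Alternatives are in the closing section. Python 3.11.15 and matplotlib 3.10.9 made the plots.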

Additional observations from a re-analysis of the deposited data

How the results depend on the processing

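All genes called higher and lower numbered 6225 and 2238 in the limma fit, 3815 and 3936 after median-ratio scaling, 3915 and 3741 after quantile normalization and 3394 and 4323 after spike-in scaling. Of the 10 genes, 1 was called higher on the deposited scale and 0 after median-ratio, quantile or spike-in scaling, while 7, 8, 8 and 9 were called lower. The other pathway genes numbered 31 higher and 13 lower, 21 and 23 after median-ratio scaling, 22 and 21 after quantile normalization and 19 and 24 after spike-in scaling. Leaving out each library gave 5483 to 5891 genes higher and 1781 to 2260 lower, 0 to 1 and 4 to 7 of the 10, and 29 to 33 and 8 to 13 other pathway genes; with 1 library left in a group, it is assumed to vary like the others. Without WT replicate 1, 4 of the 10 were called lower, and without WT replicate 2, 8 other pathway genes were. After median-ratio, quantile and spike-in scaling the log2 fold changes turned to -0.16, -0.21 and -0.21 for Arg2, to -0.0357, -0.0155 and -0.0845 for Asl, to -0.19, -0.18 and -0.24 for Sms and to -0.22, -0.25 and -0.27 for Tet2. That of Sat1 became 0.0673 after quantile normalization, and that of Tet2 ran over -0.0012 to 0.028 when single libraries were left out. Of 31 named pathway genes, 24 kept call and direction under all 15 alternatives. Slc7a3 did so in the 13 in which it was tested, since it missed the filter on low values without either Tet2 KO library. The exceptions were Slc7a6, Prodh, Aldh4a1, Azin1, Slc22a3 and Mri1. The replicate numbers were not shown to pair the libraries (correlation of deviations -0.0561), and with a replicate block 6 of the 10 were called lower and 1 higher, as against 7 and 1, with 31 and 13 other pathway genes. Pseudocounts of 0.1 and 5, no filter, a filter of 5 TPM, limma without trend or robust estimation and the sum of copies kept every count above within 1.5 times. The ratios within a library are unaltered by median-ratio and spike-in scaling, which multiply a library by 1 factor, but not by quantile normalization. The causes were not tested. Depth is unknown, so low values such as those of Slc7a3 in WT cells carry an error that cannot be given.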

Other observations

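Amd1, with 8 exons in its longest transcript, and Amd2, annotated with 1 exon, are rows of near-identical sequence within the polyamine pathway. Amd1 was listed at 0.06 and 6.59 TPM in the Tet2 KO libraries and at 0 in both WT libraries, while Amd2 was at 77.55 and 68.14 TPM in Tet2 KO cells. In Tet2 KO replicate 2, the library with the higher Amd1, Amd2 was the lower, and the sum of both rows was 77.61 and 74.73 TPM in Tet2 KO cells. Azin2, an antizyme inhibitor gene related to Azin1, was at 0.30 and 0.33 TPM in Tet2 KO cells and at 1.48 and 1.56 TPM in WT cells. Slc25a29, a mitochondrial carrier gene of basic amino acids, was at 0.35 and 0.57 TPM in Tet2 KO cells and at 1.09 and 1.69 TPM in WT cells. These genes were chosen after their values were seen.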
